A study of Mus musculus with 2 samples.

Results

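The genes described here are 10 core genes of transforming growth factor beta (TGF-beta) and bone morphogenetic protein (BMP) signalling: the receptor genes Tgfbr1, Tgfbr2 and Bmpr2 and the SMAD genes Smad1 to Smad7. The rule takes them by symbol and uses no measured value, though they were chosen with earlier results of these data known. All 10 were found among the 43346 Ensembl gene rows of the deposited tables. The libraries hold ribosome-depleted total RNA of CFU-E cells (erythroid colony-forming units, progenitors committed to red cells and named for the small colonies they give rise to). They were primary cells of adult male C57BL/6J mice aged 5 to 6 weeks, and the labels name no treatment and no engineered allele. There was 1 group of 2 libraries, replicate 1 and replicate 2, each made from 100 ng of RNA with a ScriptSeq kit. Both carry the same donor identifier, though under separate biosamples, and part of their spread can be technical. With 1 group no condition can be compared, and with 1 library on each side a difference between the replicates has no test and no p-value.

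Ligands of this superfamily bind a type II receptor serine kinase, which recruits and activates a type I receptor. The type I receptor then phosphorylates receptor-activated SMADs, which join Smad4, enter the nucleus and regulate genes. TGF-beta and activin receptors act through Smad2 and Smad3, BMP receptors act through Smad1, Smad5 and Smad9, and Smad6 and Smad7 inhibit the pathway. In red cell formation the TGF-beta and activin branch is known to restrain the growth of late progenitors, BMP signalling through Smad5 is known for its part in stress erythropoiesis, and Trim33 is known to compete with Smad4 for Smad2 and Smad3.

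Expected counts, which are estimates that divide a read matching several transcripts between them, summed to 62576357 in replicate 1 and 36889517 in replicate 2. Nuclear protein-coding genes held 12.4% and 7.49% of TPM (a level per transcript length, scaled to the same total in each library) in the libraries, so TPM of such genes ran higher in replicate 1. Over the 10403 genes whose mean count was 50 or more, the median log2 ratio of replicate 1 over replicate 2 was 0.66 by TPM and 0.03 by counts scaled with TMM (a scaling that assumes most genes alike). Of the markers of the labelled cell type, 11 of 11 erythroid genes reached 1 TPM in both libraries, with summed TPM of 27143 and 12499. Granulocyte markers reached it in 8 of 8 cases (summed TPM 1197 and 604), monocyte and macrophage markers in 8 of 9 (143 and 89.4), B cell markers in 4 of 7 (39.0 and 20.2), and mast cell, basophil and eosinophil markers in 4 of 6 (34.1 and 21.3). Megakaryocyte markers reached it in 2 of 7 cases (13.6 and 4.30) and T and NK cell markers in 2 of 7 (6.19 and 3.70). Endothelial and stromal markers reached it in 1 of 9 (4.91 and 2.91). That 1 was Cxcl12, at 3.38 and 1.95 TPM, while Cdh5 and Emcn had 0 in both. Stem and early progenitor markers reached it in 0 of 8 (3.32 and 1.27). The last list holds Kit, the stem cell factor receptor, which CFU-E cells are also known to carry and which had 0.42 and 0.51 TPM. What these other cells contributed to the SMAD and receptor levels was not tested. In bulk RNA, fewer cells of a type and less RNA per cell cannot be told apart.

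The levels of Smad2, Smad3, Smad5 and Smad7 depend on the transcript to which reads were given, and bases of Smad3, which had the largest change in length, and of Smad5 are printed here from GENCODE M21 on GRCm38. The short Smad5 transcript Smad5-204 shares 1228 of its 1385 bases with the long coding transcript Smad5-201 and has 157 of its own, 103 of them in an exon at chr13:56732190-56732292 on the plus strand. That exon is in capitals, between 25 spliced bases on each side that both transcripts hold. The short Smad3 transcript Smad3-204, of 466 bases, shares 392 (84.1%) with the full-length Smad3-201 and has 74 of its own, all in its first exon. The Smad3 bases shown are on the minus strand and belong to both transcripts, from a coding exon of 51 bases in capitals (chr9:63663665-63663715) and the next coding exon of 213 bases in lower case (chr9:63655551-63655763).
Smad5-204 own exon: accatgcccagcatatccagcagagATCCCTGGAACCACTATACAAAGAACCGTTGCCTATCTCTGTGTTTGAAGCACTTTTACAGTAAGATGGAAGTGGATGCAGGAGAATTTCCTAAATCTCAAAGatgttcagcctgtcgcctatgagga
Smad3 shared coding exons: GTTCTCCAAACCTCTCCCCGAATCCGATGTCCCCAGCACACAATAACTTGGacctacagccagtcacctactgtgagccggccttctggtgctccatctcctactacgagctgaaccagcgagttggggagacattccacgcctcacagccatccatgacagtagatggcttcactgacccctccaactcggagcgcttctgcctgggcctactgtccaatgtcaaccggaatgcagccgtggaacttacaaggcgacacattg

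Of the 10 genes 9 had a mean TPM below the median of expressed nuclear protein-coding genes, and Smad2 was above it. Their median level (mean TPM of the libraries) was 0.57, against 1.445 over the 10334 nuclear protein-coding genes with counts in both libraries and 0.055 over all 21461 nuclear protein-coding genes. Only Smad2 reached 1 TPM in both libraries, 1 of 10 genes, against 23.9% of all nuclear protein-coding genes. In replicate 1 alone Tgfbr1, Smad3 and Smad5 also reached it. The count depended on the scale: with TPM rescaled to a total over nuclear protein-coding genes, 8 of 10 reached 1 in both libraries, all but Smad6 and Smad7, against 42.2% of nuclear protein-coding genes. The 10 genes together held 3409 expected counts in replicate 1 and 2455 in replicate 2, which is 54.5 and 66.6 CPM (counts scaled by library total, with no length correction). Levels below are TPM with the deposited credibility interval of each library in brackets, whose level is not given in the sources used here, and mean ± SD is over n = 2.

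Among the receptors, Tgfbr1 and Tgfbr2 stood above Bmpr2, and they differed between the libraries in opposite directions. Tgfbr1, the type I receptor of TGF-beta (chr4:47353222-47414931), had 903 counts and 1.00 TPM (0.958 to 1.16) in replicate 1. In replicate 2 it had 425 counts and 0.51 TPM (0.475 to 0.639), which gives a mean of 0.755 ± 0.346. Its TPM intervals did not overlap between the libraries. TPM was shifted towards replicate 1 over all genes tested, by a median log2 ratio of 0.66. For Tgfbr1 the log2 ratio was 0.97 by TPM, 0.24 by TPM rescaled over nuclear protein-coding genes and 0.39 by TMM-scaled counts.

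Tgfbr2, the type II receptor that binds TGF-beta (chr9:116084293-116175360), had 430 counts and 0.58 TPM (0.526 to 0.636) in replicate 1. In replicate 2, the shallower library, it had 533 counts and 0.77 TPM (0.699 to 0.829), for a mean of 0.675 ± 0.134. Replicate 2 was the higher one by both measures, with a log2 ratio of replicate 1 over replicate 2 of -1.01 by TMM-scaled counts and -0.41 by TPM. The exact 95% Poisson intervals of its counts were 390 to 473 and 489 to 580, and all such intervals cover counting error only, since PCR copies are not independent molecules. Within a library the log2 TPM ratio of Tgfbr2 to Tgfbr1 was -0.79 in replicate 1 and 0.59 in replicate 2, so which of these receptors was higher depended on the library.

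Bmpr2, the type II receptor of BMPs (chr1:59763400-59879014), was the lowest of the receptors per length, with 339 counts and 0.16 TPM (0.149 to 0.206) in replicate 1 and 194 counts and 0.10 TPM (0.0898 to 0.143) in replicate 2. Tgfbr2 exceeded it 3.62-fold in replicate 1 and 7.70-fold in replicate 2, which is a log2 TPM ratio of Bmpr2 to Tgfbr2 of -2.40 ± 0.77. In CPM Bmpr2 had 5.34 ± 0.11, and its transcript of 12899 bases is the longest of the set.

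Of the SMADs of the TGF-beta branch, Smad2 was higher than Smad3 in both libraries. Smad2 (chr18:76241580-76310963) had 392 counts and 2.53 TPM (2.19 to 2.91) in replicate 1 and 406 counts and 1.12 TPM (1.00 to 1.31) in replicate 2. Its mean of 1.825 ± 0.997 was the highest of the 10, and it ranked above 79.8% and 76.2% of nuclear protein-coding genes in the libraries. By TPM replicate 1 was higher by a log2 ratio of 1.18, whereas by TMM-scaled counts replicate 2 was higher, at -0.75.

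Smad3 (chr9:63646767-63757994) had 157 counts and 1.75 TPM (1.41 to 2.27) in replicate 1. In replicate 2 it had 147 counts and 0.20 TPM, just under its own interval of 0.211 to 0.431. Nearly equal counts thus carried TPM values 8.75-fold apart, and the mean of 0.975 ± 1.096 had an SD above itself. By TMM-scaled counts the direction was the opposite, a log2 ratio of -0.60. Smad2 exceeded Smad3 by 1.45-fold and 5.60-fold in TPM, though their intervals overlapped in replicate 1.

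Of the BMP-branch SMADs, Smad5 was the main one and Smad1 was low. Smad5 (chr13:56703010-56742377) had 889 counts and 1.68 TPM (1.51 to 1.97) in replicate 1 and 386 counts and 0.40 TPM (0.381 to 0.515) in replicate 2, a mean of 1.04 ± 0.905. Its intervals did not overlap, and the replicates differed by a log2 ratio of 2.07 in TPM but 0.50 in TMM-scaled counts. Smad1 (chr8:79338395-79399518), the close relative of Smad5, had 74 counts and 0.16 TPM (0.129 to 0.209) in replicate 1 and 38 counts and 0.09 TPM (0.0656 to 0.123) in replicate 2. Smad5 was higher than Smad1 in both libraries, 10.5-fold and 4.44-fold, or 2.77 ± 0.88 on the log2 TPM scale. Smad9, the remaining SMAD of this branch, had 0 counts in both, which allows up to 3 counts per library.

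Smad4 (chr18:73639009-73703780), the partner shared by both branches, had 178 counts and 0.34 TPM in replicate 1, where its interval was 0.344 to 0.537, and 283 counts and 0.59 TPM (0.568 to 0.786) in replicate 2. Like Tgfbr2 it was higher in replicate 2 by both measures, with a log2 ratio of replicate 1 over replicate 2 of -1.36 in TMM-scaled counts and -0.80 in TPM. The Poisson intervals of its counts, 153 to 206 and 251 to 318, did not overlap although replicate 2 was the shallower library. Smad4 was lower than Smad2 in both libraries, by 7.44-fold and 1.90-fold. Against Smad5 it was lower in replicate 1 and higher in replicate 2, a log2 TPM ratio of -0.87 ± 2.03.

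The inhibitory SMADs had the fewest counts of the set, and Smad6 was close to the limit of detection. Smad7 (chr18:75367529-75395935) had 47 counts and 0.24 TPM (0.168 to 0.420) in replicate 1 and 32 counts and 0.05 TPM in replicate 2, below its own interval of 0.0536 to 0.182. Smad6 (chr9:63953076-64022059) had 0 counts in replicate 1, which allows up to 3, and 11 counts and 0.03 TPM in replicate 2. Its intervals were 0.00472 to 0.312 TPM and 0.0246 to 0.268 TPM, and its posterior mean TPM was 0.12 in both libraries, against a mean of 0.015 ± 0.021 of the TPM values. By counts Smad7 was the higher one in both libraries, with separate Poisson intervals in each. Per length their TPM intervals overlapped in both libraries. Both stayed under the mean count of 50 used for the comparison of replicates.

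**Figure D1:**
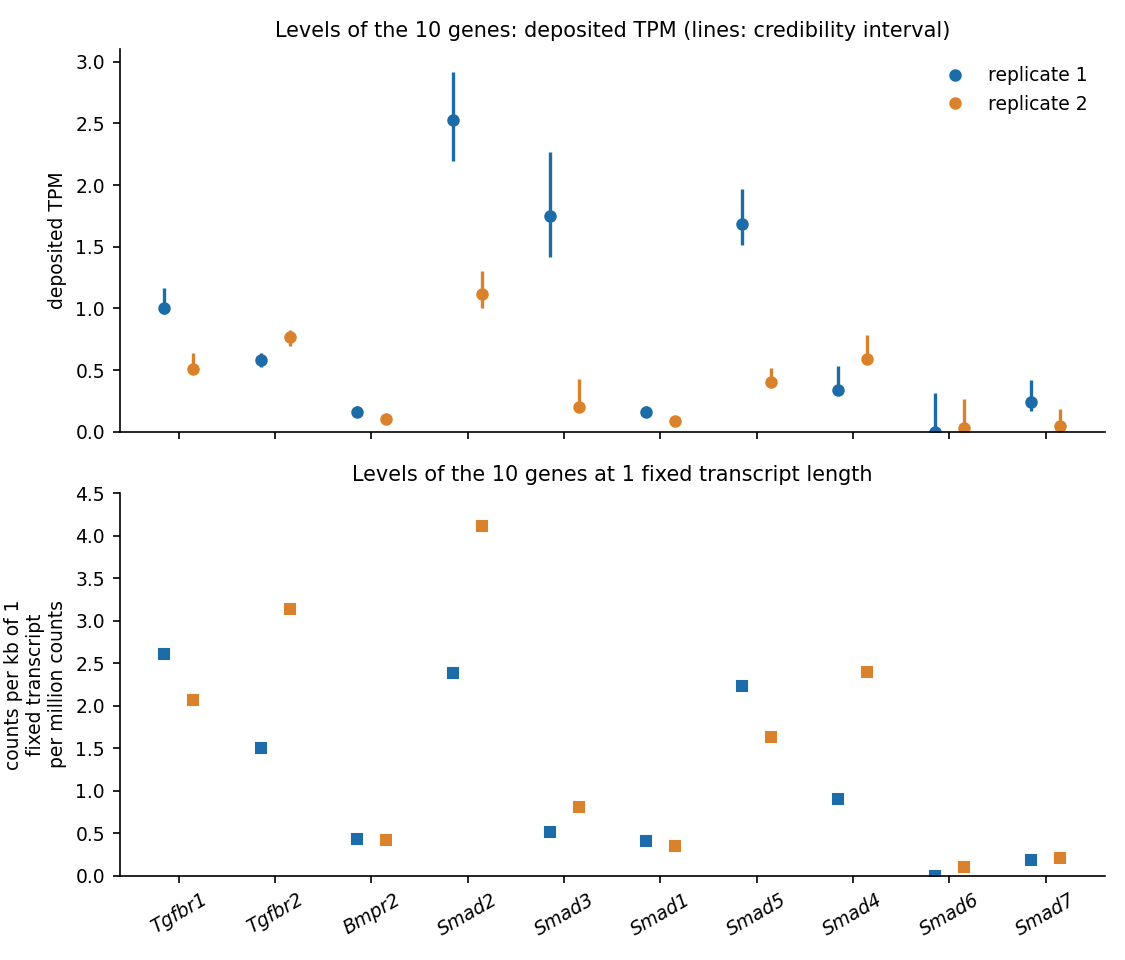
Level of each gene in both libraries. The upper panel plots deposited TPM with the credibility interval as a line; the lower panel plots CPM per kilobase of 1 fixed transcript, with no error since each point is 1 library. Smad3 stands at 1.75 and 0.20 TPM above, and at 0.515 and 0.812 below, where replicate 2 is the higher one.

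Ordered by mean TPM, the genes ran Smad2, Smad5, Smad3, Tgfbr1, Tgfbr2, Smad4, Smad7, Bmpr2, Smad1 and Smad6. Of the 9 neighbouring pairs in this order only Smad2 and Smad5 differed beyond their spread, meaning the same sign in both libraries, a mean log2 ratio above its SD and separate intervals in each library. Their log2 TPM ratio was 0.59 and 1.49 in the libraries. Smad3 had the largest SD of the set and moved from above Tgfbr1 in replicate 1 to below it in replicate 2. Of 8 pairs chosen by role, with earlier results of these data known, 7 could be evaluated in both libraries. Of these, 5 kept their sign with a mean above the SD. They were Smad5 over Smad1, Smad2 over Smad3, Tgfbr2 over Bmpr2, Smad2 over Smad4 and Smad2 over Smad5. Separate intervals were not required of these pairs, and those of Smad2 and Smad3 overlapped in replicate 1.

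The TPM of Smad2, Smad3, Smad5 and Smad7 followed which of their transcripts was given the counts. TPM divides counts by effective length, which averages over the transcripts called in that library. For Smad3 the effective length was 548 bases in replicate 1 and 4908 in replicate 2, an 8.96-fold difference. For Smad7 the lengths differed 3.35-fold, for Smad2 2.53-fold and for Smad5 1.98-fold, each time with the shorter one in replicate 1. In the other 5 genes with counts in both libraries it differed by at most 1.01-fold. Among the 8 genes past the count filter, 3 had effective lengths at least 1.5-fold apart (a threshold chosen after the values were seen), against 15.2% of nuclear protein-coding genes past it. In the range of mean counts in which the 8 genes lie, 50 to 1000, the share was 19.8%.

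In Smad3, the full-length transcript Smad3-201 (5090 bases) received 91.6 counts in replicate 1 and 147 in replicate 2. The short Smad3-204 received 65.4 and 0, which made up 93.4% of the gene's TPM in replicate 1. The extra 65.4 counts on a transcript of 466 bases thus carried nearly the whole level of the gene in that library. In Smad5, Smad5-201 (6584 bases) received 696 and 386 counts, and Smad5-204, annotated as a processed transcript without a coding sequence, received 193 and 0. Smad5-204 held 60.2% of the gene's TPM in replicate 1 on 21.7% of its counts. Its interval there was wide, 0.134 to 1.11 TPM, and that of Smad5-206, which received 0 counts, reached 0.828 TPM.

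In Smad7, the full-length Smad7-201 (4278 bases) received 30.1 and 32 counts and Smad7-204 (769 bases), which shares 668 of its bases with it, 16.9 and 0. Smad2 had no transcript with counts in both libraries. Its counts in replicate 1 went to Smad2-201 (2410 bases, 204 counts), Smad2-203 (1305 bases, 93.4 counts) and Smad2-207 (628 bases, 94.9 counts, 56.6% of TPM). In replicate 2 they went to Smad2-205 (2857 bases, 397 counts, 87.5% of TPM) and Smad2-204 (614 bases, 9.12 counts). Tgfbr1, Tgfbr2, Bmpr2, Smad1 and Smad4 each had all their counts on 1 transcript, the same in both libraries. For Tgfbr2 that assignment was not resolved in replicate 1, where the interval of Tgfbr2-202 was 0.0110 to 0.573 TPM and that of Tgfbr2-201, at 0 counts, reached 0.534. The transcript with most of the gene's TPM was therefore, by point estimates, the same in 5 of 9 genes, and by share of counts in 8 of 9, with Smad2 the exception. The short transcripts Smad3-204, Smad5-204 and Smad7-204 share most of their bases with the long one, so the division of reads between them is an estimate. In replicate 1 the interval of Smad3-204 was 1.23 to 2.06 TPM and that of Smad7-204 0.0900 to 0.304. Both lay above the upper bounds in replicate 2, 0.0691 and 0.0331. Of the 3, the division was least certain for Smad5-204, at 0.134 to 1.11 TPM in replicate 1. That interval also lay above its upper bound in replicate 2, 0.0280. Whether the cells of the 2 libraries differed in splicing was not tested.

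**Figure D2:**
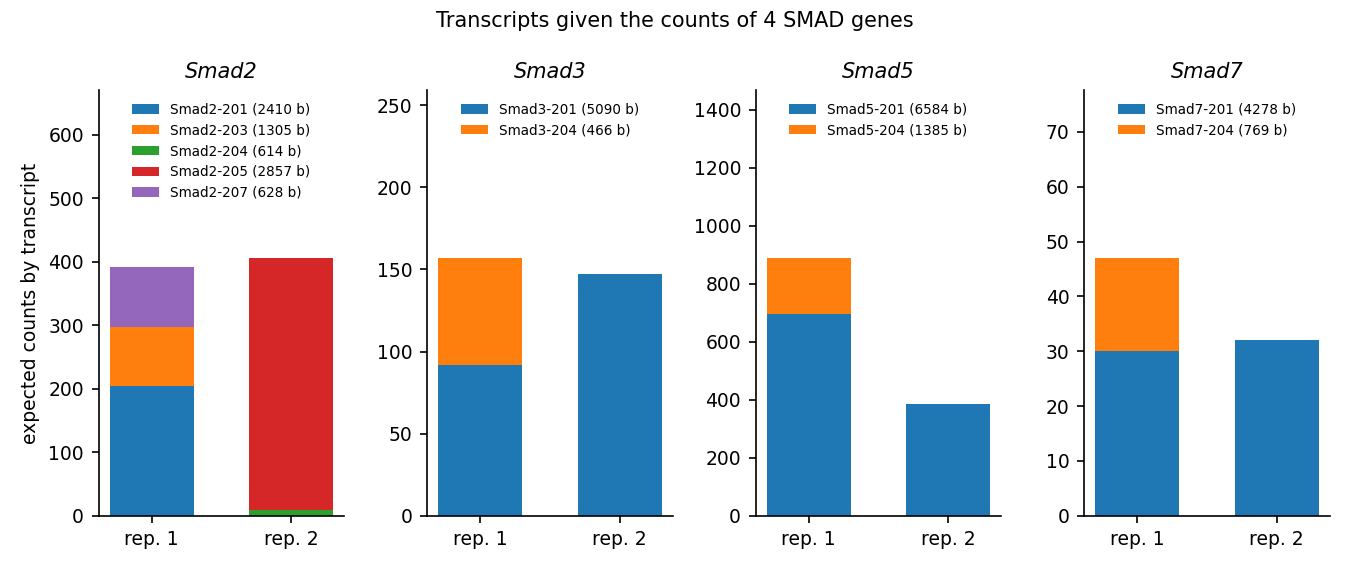
Expected counts of Smad2, Smad3, Smad5 and Smad7 by library, stacked by transcript, with transcript lengths in bases in the key and a separate linear axis from 0 for each gene. Smad3 has 157 and 147 counts in all, but only replicate 1 has counts on the transcript of 466 bases. Smad2 shares no transcript between its bars.

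At 1 fixed length per gene, that of the transcript with most counts over both libraries, the ratios of 4 pairs came closer between the libraries. Those of the other pairs with values in both libraries did not. This measure, chosen after the data were seen, is CPM per kilobase of that transcript's effective length. For Smad2 the transcript is Smad2-205, which received 0 counts in replicate 1. Each Smad2 value of replicate 1 on this measure thus rests on a length not called in that library. Smad2 exceeded Smad3 by 4.61-fold and 5.07-fold on this measure, a log2 ratio of 2.27 ± 0.10 against 1.51 ± 1.38 in TPM. Smad5 exceeded Smad1 by 5.43-fold and 4.63-fold, a log2 ratio of 2.33 ± 0.16 against 2.77 ± 0.88 in TPM. Smad4 lay below Smad2 by a log2 ratio of -1.09 ± 0.44, against -1.91 ± 1.39. Smad4 to Smad5 still changed sign, at -1.31 in replicate 1 and 0.55 in replicate 2. Tgfbr2 to Bmpr2, whose lengths did not move, stayed as it was in TPM, with a log2 ratio of Bmpr2 to Tgfbr2 of -2.37 ± 0.78. Smad2 over Smad5 no longer exceeded its spread, at a log2 ratio of Smad5 to Smad2 of -0.71 ± 0.88 against -1.04 ± 0.63 in TPM.

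On the same scale Smad2 had 2.38 and 4.11 in replicates 1 and 2, Tgfbr1 2.61 and 2.07, Tgfbr2 1.51 and 3.14, Smad5 2.23 and 1.63, and Smad4 0.900 and 2.40. Smad3 had 0.515 and 0.812, Bmpr2 0.427 and 0.414, Smad1 0.411 and 0.353, and Smad7 0.185 and 0.212. The order by mean was Smad2, Tgfbr1, Tgfbr2, Smad5, Smad4, Smad3, Bmpr2, Smad1, Smad7 and Smad6, and the only neighbours apart beyond their spread were Smad4 and Smad3 (log2 ratio 1.18 ± 0.54). Smad2 stayed first by mean, although Tgfbr1 was above it in replicate 1. Smad3 moved from the third place to the sixth, and Smad7 moved below Bmpr2 and Smad1. Summed by branch, Smad2 and Smad3 had 2.89 and 4.93 on this scale and Smad1 and Smad5 had 2.64 and 1.99. By point values the TGF-beta branch was the higher one in both libraries. In replicate 1 the sums lay close together, and no error of the sums was computed. The TGF-beta sum there also rests on the length of Smad2-205, which had 0 counts in replicate 1. In TPM the branch sums were 4.28 and 1.32 against 1.84 and 0.49. In expected counts, with no length correction, they were 549 and 553 against 963 and 424, so that the BMP branch was the higher one in replicate 1.

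Between the replicates, 2 of the 8 genes past the count filter were at least 2-fold higher in replicate 2 by TMM-scaled counts, Tgfbr2 at 2.01-fold and Smad4 at 2.58-fold, against 10.3% of all genes tested. In replicate 1, 0 of 8 were at least 2-fold higher, against 10.8%. Tgfbr2 lay at the threshold, and with a prior count of 5 in place of 0.5 only Smad4 was past it. Deposited TPM moved all genes tested towards replicate 1, not these genes alone. By TPM 31.9% of all genes reached 2-fold on that side, where 10.8% did by counts. On the side of replicate 2 the share was 5.87%, where it was 10.3% by counts. None of the 8 genes reached 2-fold on the side of replicate 2 by TPM. On the side of replicate 1, 3 of the 8 did, a share close to that of all genes: Smad2, Smad3 and Smad5. These are the same 3 genes whose effective lengths were at least 1.5-fold apart. The median log2 ratio of the 8 was -0.25 by counts and 0.90 by TPM, beside 0.03 and 0.66 over all genes tested. The median size of the log2 count ratio was 0.55 among the 8 genes and 0.59 among the 6096 nuclear protein-coding genes with mean counts of 50 to 1000.

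**Figure D3:**
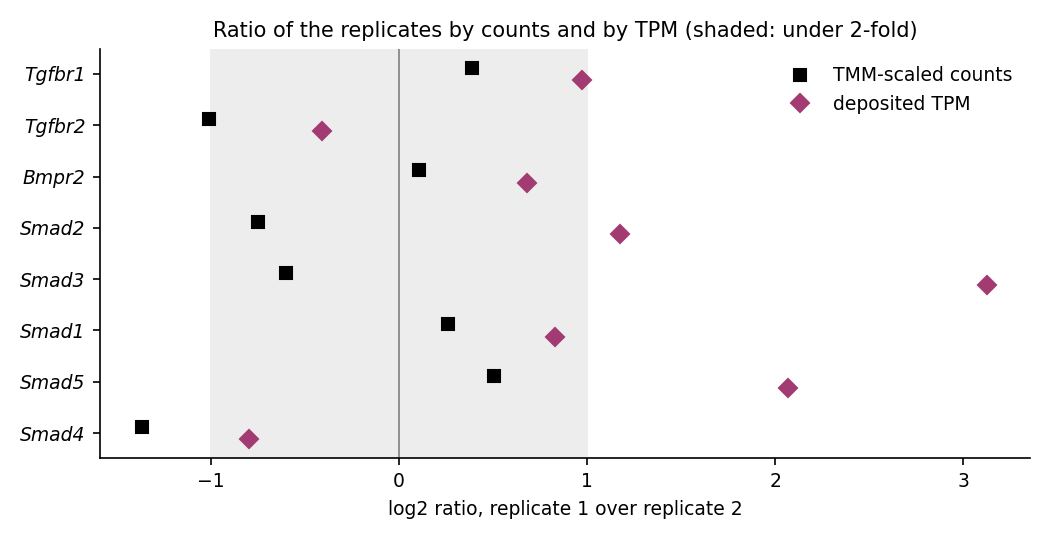
Log2 ratio of replicate 1 over replicate 2 for the 8 genes whose mean count was 50 or more, by TMM-scaled counts (squares) and by deposited TPM (diamonds), with ratios under 2-fold shaded. Smad2 and Smad3 lie on opposite sides of 0 by the measures, and Tgfbr2 and Smad4 lie to the left of 0 by both.

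Around these genes the pathway was unevenly represented. The 54 other genes of the pathway, in 6 lists, were also chosen with earlier results of these data known. Of them 12 reached 1 TPM in both libraries, against the 23.9% of nuclear protein-coding genes given above. The number with 0 counts in both was 18, against 9193 of 21461 nuclear protein-coding genes, and the median level of the 54 was 0.0925 TPM. Ligands were mostly undetected, with 10 of 14 at 0 counts in both libraries. The highest was Tgfb1, which encodes a ligand of Tgfbr2 and Tgfbr1, at 1.71 and 1.22 TPM. The other detected ligands, named for completeness after their values were seen, were Bmp6 (95 and 2 counts), Inhba (77 and 8) and Bmp4 (0 and 6). None of the 13 other receptors and co-receptors reached 1 TPM in both libraries. The highest by mean was Tgfbr3, the co-receptor betaglycan, at 0.63 and 0.08 TPM on 88 and 68 counts.

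Genes that regulate SMAD proteins stood highest, 6 of 10 at 1 TPM or more in both libraries. Usp15, a deubiquitinase that acts on receptors and SMADs, had 47.46 and 29.71 TPM, and Strap, which helps Smad7 hold the type I receptor, had 18.59 and 11.70. The ubiquitin ligase Stub1 had 4.32 and 3.05, the SMAD phosphatase Ppm1a 3.86 and 3.34, the ubiquitin ligase Rnf111, which targets inhibitory SMADs and SMAD co-repressors, 2.26 and 1.38, and Smurf2, a ubiquitin ligase of SMADs and receptors, 1.13 and 1.11. Of 8 nuclear partners and co-repressors 3 reached it: the coactivator acetyltransferases Ep300 at 8.96 and 8.13 and Crebbp at 3.38 and 2.23, and Trim33 at 2.34 and 1.74. Each of these 9 genes exceeded Smad4 in TPM in both libraries. This follows from naming genes at 1 TPM or more, since Smad4 lay below that minimum in both.

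Of 8 target genes 2 reached 1 TPM in both libraries, Klf10, an early response gene of TGF-beta, at 2.80 and 2.43, and Id2, a target of BMP signalling, at 1.37 and 1.02, and 3 of the 8 had 0 counts in both. Of the 24 other pathway genes past the count filter, 3 were at least 2-fold higher in replicate 1 by TMM-scaled counts and 1 in replicate 2, against 10.8% and 10.3% of all genes tested. Named after their values were seen, these were Bmpr1a (148 and 0 counts), Amhr2 (118 and 0) and Eng (96 and 21), and then Smurf1 (42 and 115). The co-repressors Skil (1.77 and 0.38 TPM on 507 and 349 counts) and Tgif2 (2.43 and 0.15 TPM on 104 and 56 counts), also named after their values were seen, reached 1 TPM in replicate 1 alone.

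**Figure D4:**
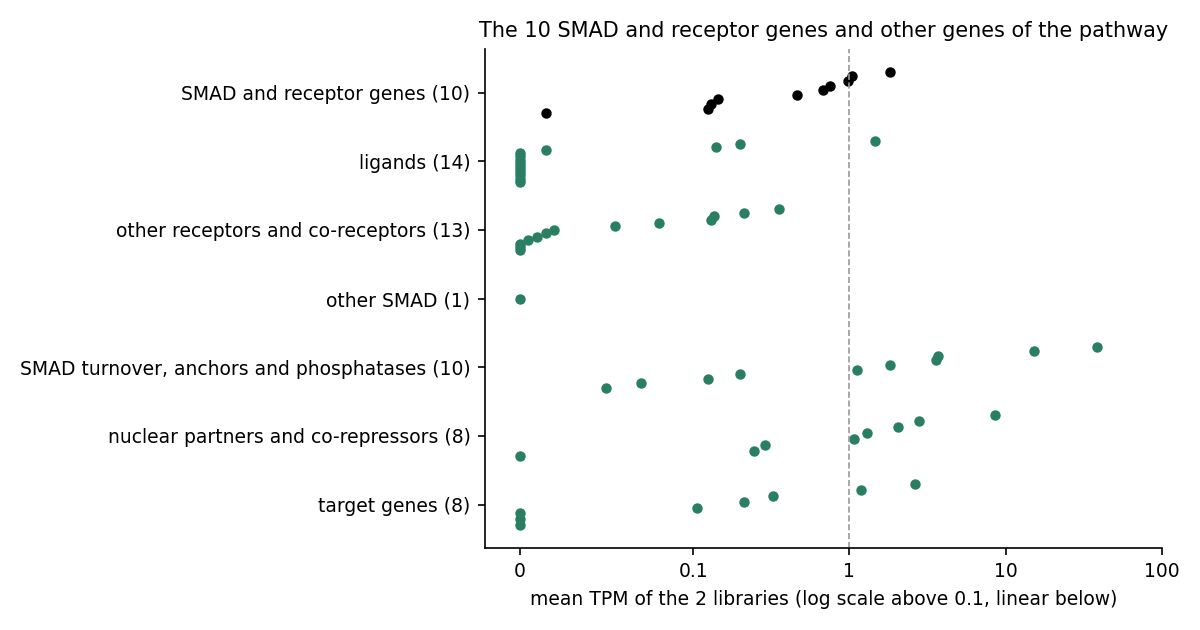
Mean TPM of the 2 libraries for the 10 genes (black) and for the 54 other pathway genes by list (green), 1 point per gene, on an axis that is linear up to 0.1 and logarithmic above it, with a dashed line at 1 TPM. Of the 14 ligands 10 lie at 0 and Tgfb1 alone lies above the line, and the highest points belong to the list of SMAD turnover, anchors and phosphatases.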

How the data were processed

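Total RNA was measured in 2 libraries of 1 group. The authors deposited gene and transcript tables on mm10, with annotation M4 per the deposited notes; which aligner and quantifier made them is not given in the sources used here. Per the file headers the deposited columns hold expected counts, TPM with posterior mean TPM and credibility bounds of TPM (a signal that is never negative), and the percent of a gene's TPM held by each transcript. Estimated lengths in the deposited tables enter TPM, so a short transcript with few counts raises it.

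Symbols and coordinates came from GENCODE M21 by Ensembl identifier without version, and 42462 of 43346 rows matched; 2 listed genes were found under newer symbols. Whole-number roundings of the expected counts were scaled with TMM in edgeR 4.0.16 (effective sizes 61216283 and 37709101) and with DESeq2 1.42.0 size factors, in R 4.3.3. The rest was done in Python 3.11.15 with pandas 2.3.3, numpy 2.4.6 and scipy 1.17.1, and drawn with matplotlib 3.10.9. Replicate ratios used a prior count of 0.5 and a minimum mean count of 50, and their computation was tested on simulated data. Zero counts allow up to 3 counts. No group test was possible, so no p-value was given. Members, gene pairs and lists were chosen with earlier results of these data known. Named were the 10 genes, both genes of each pair, listed pathway genes that reached 1 TPM in both libraries or else the highest of the list, and transcripts with a mean share of at least 10% of their gene's TPM; other names are marked. Alternatives covered scaling, TPM forms and minimums, filters, prior counts, length and leaving out a replicate.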

Additional observations from a re-analysis of the deposited data

How the results depend on the processing

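No paired analysis was possible because both libraries belong to 1 group. The count of genes that reached 1 TPM in both libraries (1) was 8 once TPM was rescaled over nuclear protein-coding genes and 4 at 1 fixed transcript length. It was 3 at a minimum of 0.5 TPM, 0 at a minimum of 5 TPM, and 1 to 4 with one library left out. Posterior mean TPM left it at 1. The rescaled and fixed-length levels have other units, so 1 is not the same minimum on them. Tgfbr1, whose length did not move, had 1.00 and 0.51 TPM but 2.61 and 2.07 at fixed length. On the rescaled scale all 10 levels moved beyond their SD in TPM, for example Smad2 to 17.7, Tgfbr2 to 7.48 and Smad4 to 5.31. Rescaling raises all TPM of a library by 1 factor, so such moves follow from the change of scale. Neighbours in the order that differed (1) numbered 3 to 4 with one library left out, where only the intervals decide. The count of genes at least 2-fold apart (2) was 1 with a prior count of 5, where Tgfbr2 fell below the threshold, and 4 by the ratio of rescaled TPM. The log2 replicate ratio changed sign by the ratio of deposited TPM for Smad2 (1.18) and Smad3 (3.13), and by that of rescaled TPM for Smad3 (2.40), and under 2-fold for Smad2 (0.45) and Bmpr2 (-0.05). By CPM with no length correction the Smad5 to Smad2 log2 ratio changed sign, to 0.55. In the order by mean CPM, Tgfbr1, Smad5 and Tgfbr2 came before Smad2. Genes with the same leading transcript in both libraries (5) numbered 8 by share of counts. A mean count of at least 1000 left 0 of these genes. Leaving out a library was not run for fold counts, the count of pairs or the leading transcripts, which need both. Depth limits Smad6 and Smad7, at 47 counts or fewer per library.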
